A study of Mus musculus with 39 samples.

Results

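The adhesion G protein-coupled receptors of the mouse were followed through 4 genome-wide binding lists of NOTCH and RBPJ in radial glial cells (RGCs) and intermediate progenitor cells (IPCs). The 27 protein-coding genes whose symbol is Adgr with 1 letter and a number were taken from the 21938 protein-coding genes of the nuclear chromosomes, and each peak was given to the gene with the nearest start site. In this way 82 of 20809 consensus peaks fell to 12 of the 27 genes. The family was chosen by a value of these data: Adgrl2 shared rank 3 of all genes in the IPC RBPJ list. Its count there is therefore a description of the choice and supports nothing. The genes with most IPC RBPJ peaks were Nfib with 16, Zfp608 with 14, and then Adgrl2 and Auts2 with 11 each. Just outside stood Myt1l, Pou3f3 and Tenm4 with 10 each.

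Binding was mapped by Targeted DamID, in which a low level of a Dam methylase fusion marks GATC sites near the bound protein. Plasmids were electroporated in utero into the cortex of wild-type MF1 mouse embryos at E13.5, and the electroporated region was dissected without cell sorting at E14.5. A Hes5 promoter drove expression in RGCs and a Tα1 promoter in IPCs, so each cell type is defined by the activity of a plasmid promoter. The RGC RBPJ list rests on 3 samples with human RBPJ1, and the IPC RBPJ list on 3. The RGC Notch list combines 2 samples with mouse NdECD, which lacks the extracellular domain, and 2 with mouse NICD, the intracellular domain. The IPC Notch list rests on 4 samples with mouse NICD. The controls expressed Dam-only, in 5 RGC samples and 4 IPC samples, and the RBPJ and Notch lists of a cell type share them. The remaining 16 of 39 samples were not analysed here. Each list holds 1 set of positions for all samples of a condition, without binding strength or depth, so no spread between samples can be given and no difference was tested. Intervals are Wilson 95% intervals, cover counting error over peaks or genes only, and treat peaks of 1 gene as separate although they share a locus. RGC and IPC lists also differ in size (14097 and 3702 peaks for RBPJ and Notch in RGCs, 5497 and 2157 in IPCs), and the part of this in the counts below was not tested.

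Adhesion G protein-coupled receptors combine a long extracellular region, built to bind other proteins or matrix, with a membrane-spanning core that signals through G proteins. Most of them cut themselves at a conserved site in front of the first membrane helix, and the freed end can act as a tethered agonist. The latrophilins (Adgrl) bind teneurins and FLRT proteins across cell contacts, the brain angiogenesis inhibitors (Adgrb) act at synapses and in uptake of dying cells, and Adgrg1 is required for an orderly cortical surface. NOTCH acts on DNA through RBPJ, whose binding site holds the word TTCCCA.

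By subfamily, all 4 Adgrl genes and all 3 Adgrb genes had a consensus peak, with 53 and 13 peaks. Adgrl2, on which the family was selected, held 33 of the 53. Per length of genome nearest to their start sites this came to 7.33 and 7.34 peaks per Mb, beside 7.63 for the genome. The Adgrl value includes the selected Adgrl2 at 14.2 per Mb, with Adgrl1 at 15.9, Adgrl4 at 4.93 and Adgrl3 at 3.27. The single members Adgrv1 and Adgrd1 had 9 and 2 peaks (17 and 8.32 per Mb), and 2 of the 3 Adgra genes had 4 together. Of the 7 Adgrg genes only Adgrg1 had one, and the 3 Adgre and 5 Adgrf genes had none. Over the family, 44.4% of genes (27.6 to 62.7%) had a peak, beside 38.7% of all protein-coding genes. At least 5 peaks lay at 5 members, 18.5% (8.18 to 36.7%), beside 4.69% of all protein-coding genes, and these 5 genes held 67 of the 82 peaks. Adgrl2 alone held 33 of the 67, and without it 4 of 26 members (15.4%, 6.15 to 33.5%) had at least 5. All 5 genes have more than 0.5 Mb of genome nearest to their start sites. Over all protein-coding genes the mean was 4.67 peaks with 0.5 to 1 Mb and 6.69 with 1 Mb or more, so nothing is read from the share.

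**Figure D1:**
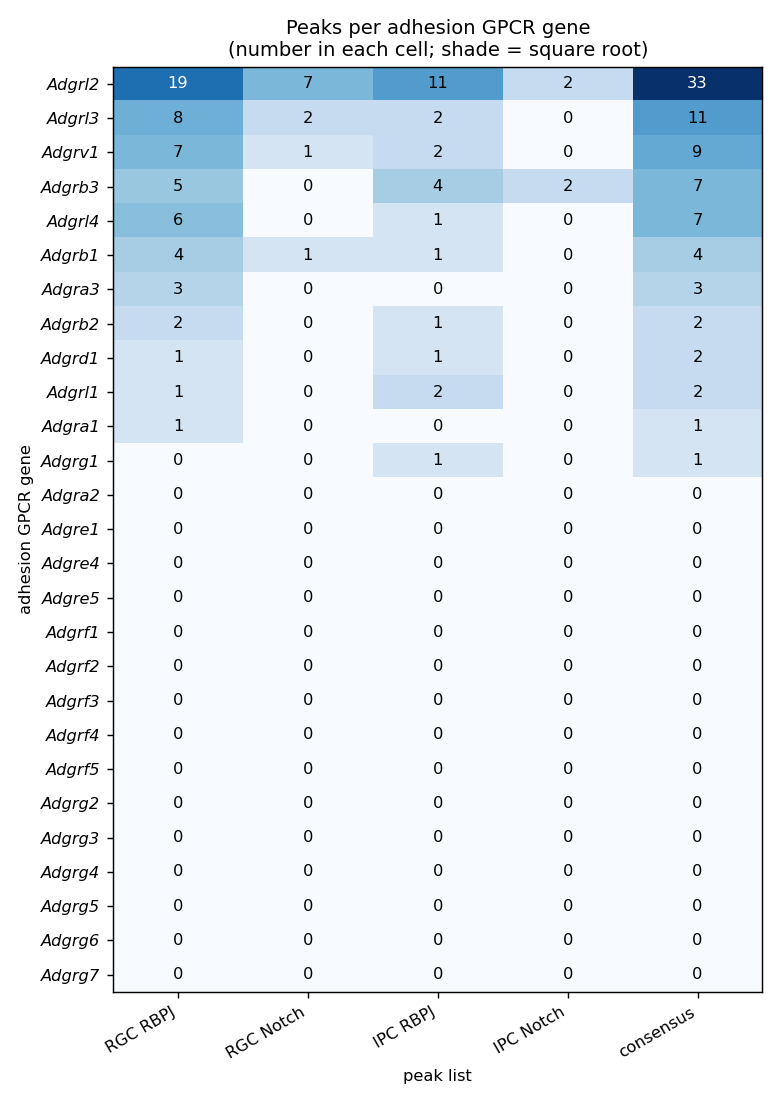
Number of peaks nearest to each of the 27 adhesion GPCR genes (rows) in the 4 binding lists and in the consensus set (columns), with shade on a square-root scale. Adgrl2 leads the consensus set with 33 peaks and 15 genes stand at 0 in every column.

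The family was then counted in each of the 4 lists. In RGCs, RBPJ peaks lay at 11 of the 27 members (40.7%, beside 30.9% of all genes) and Notch peaks at 4 (14.8%, beside 11.5%). In IPCs, RBPJ peaks lay at 10 members (37%, beside 16.1%) and Notch peaks at 2 (7.41%, beside 6.91%). The IPC RBPJ list is the one used in the choice, and nothing is read from its share. By peaks, members took 57 of 14097 in the RGC RBPJ list (0.404%, interval 0.312 to 0.523%) and 11 of 3702 in the RGC Notch list (0.297%, 0.166 to 0.531%). Among IPC peaks they took 26 of 5497 for RBPJ (0.473%, 0.323 to 0.692%) and 4 of 2157 for Notch (0.185%, 0.0721 to 0.476%). The 4 intervals overlapped. The stretches of genome nearest to members' start sites came to 12.6 Mb, or 0.464% of the genome. All 4 intervals included that share, with the peaks of Adgrl2, on which the family was selected, counted in. Without Adgrl2 members took 0.27% of RGC RBPJ peaks (0.196 to 0.37%) and 0.108% of RGC Notch peaks (0.042 to 0.278%). Of IPC peaks they then took 0.273% for RBPJ (0.165 to 0.45%) and 0.0927% for Notch (0.0254 to 0.337%). The stretches of these other members made up 0.378% of the genome. This was above the interval in the 2 RGC lists and the IPC Notch list and inside it for IPC RBPJ. Genes with stretches of at least 1 Mb had a median of 2.91 consensus peaks per Mb, beside 7.63 for the genome. Among them were Adgrb3 (5.45 per Mb), Adgrl4 (4.93), Adgrl3 (3.27) and Adgra3 (2.84). Stretch length was not matched, so nothing is read from either genome share.

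Adgrl2, a latrophilin that binds teneurins and FLRT proteins and guides synapse formation in the hippocampus, held 33 consensus peaks. Only 3 protein-coding genes had more. That count includes the IPC RBPJ peaks on which the family was selected, and is likewise a description. In RGCs it had 19 RBPJ peaks and 7 Notch peaks, and in IPCs 11 and 2. By count it shared rank 11 with 1 other gene in the RGC RBPJ list and rank 13 with 12 others in the RGC Notch list. The gene lies on the minus strand of chromosome 3 (mm10 148815583 to 148990555) and is flanked by Ttll7 and by Adgrl4, with gaps of 1879 kb and 2447 kb between the nearest start sites. The stretch nearest to its start sites was thus 2.33 Mb long and held 14.2 consensus peaks per Mb, beside 7.63 per Mb for the genome. Among the 357 genes with stretches of at least 1 Mb its density ranked 15, above the upper quartile of 5.95 and the median of 2.91 per Mb. When start sites of all annotated genes were allowed, 7 of the 33 peaks were nearest to Adgrl2 and the others to genes that code for no protein, such as small RNAs and pseudogenes in the same stretch. For the whole family 24 peaks in place of 82 were then nearest to a member.

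**Figure D2:**
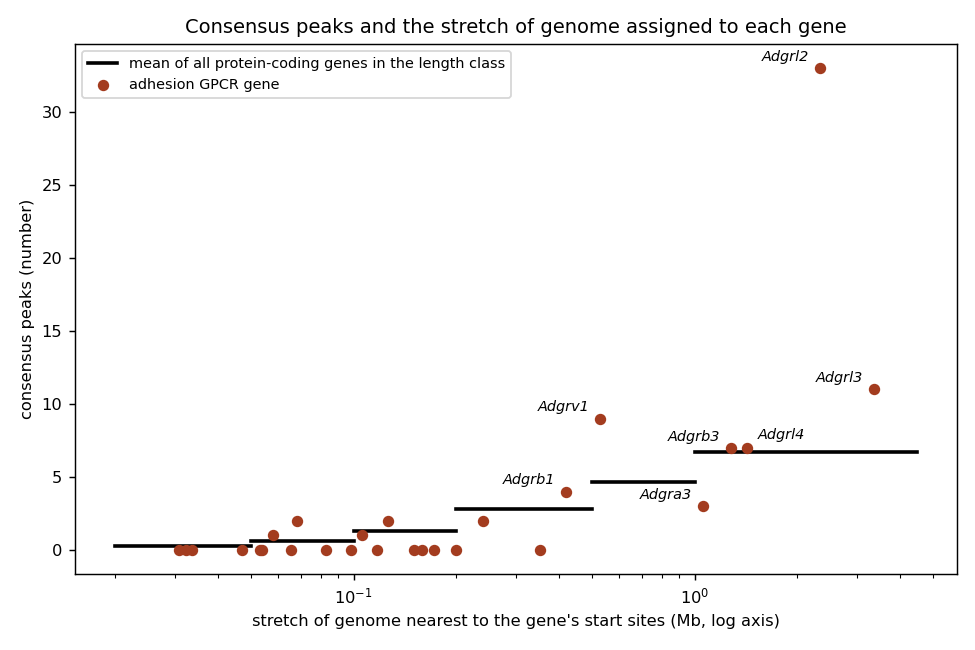
Consensus peaks per gene against the length of genome nearest to the gene's start sites (Mb, log axis) for the 27 adhesion GPCR genes, with black lines for the mean of all protein-coding genes in 6 length classes. Adgrl2 stands at 33 peaks where the mean of its class is 6.69, while most members lie near or below their line.

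The Adgrl2 peaks were spread over 1.4 Mb. Of the 33 peaks, 10 had their midpoint in the gene body, all in introns, 13 lay beyond its 3′ end and 10 beyond its 5′ end. The median distance to a start site was 138 kb, and 17 peaks lay over 100 kb away (51.5%), beside 22.7% of all consensus peaks. The 2.33 Mb length of the stretch allows such distances, and its part in this share was not tested. The lists divided differently over the locus. RGC Notch peaks numbered 4 beyond the 3′ end, 2 in the body and 1 beyond the 5′ end, whereas IPC RBPJ peaks numbered 2, 4 and 5. RGC RBPJ peaks numbered 8, 6 and 5. The 2 IPC Notch peaks lay 1 on each side of the gene. With so few peaks a list this is a description.

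**Figure D3:**
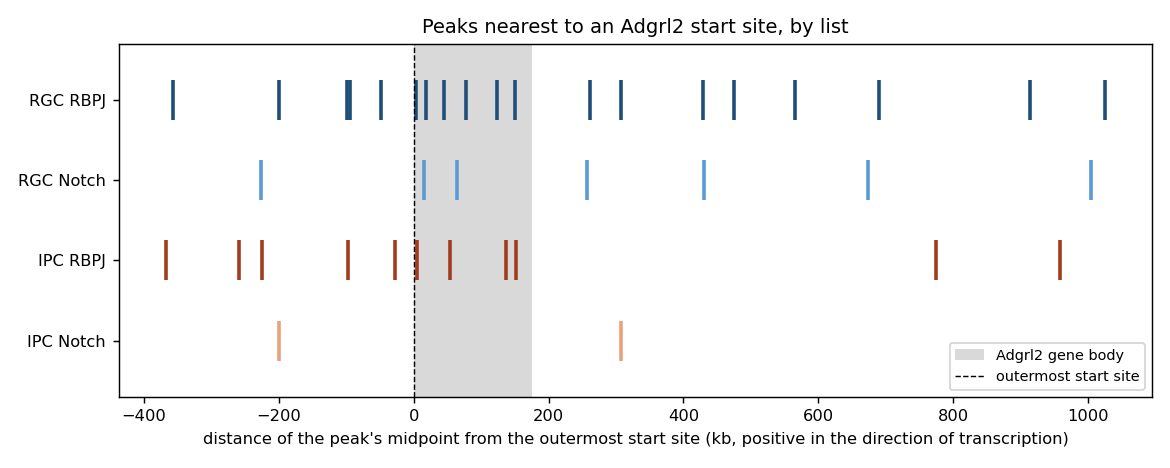
Midpoints of the peaks nearest to Adgrl2 in each of the 4 lists, by distance from the outermost start site (kb, positive in the direction of transcription), with the 175 kb gene body in grey. RGC RBPJ marks lie across the whole 1.39 Mb, and only 2 of 11 IPC RBPJ marks lie beyond the 3′ end of the gene.

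The 11 IPC RBPJ peaks of Adgrl2 lay on both sides of the gene and inside it. Beyond the 3′ end stood chr3:148031829-148032852 and chr3:148213718-148216477, 790 and 607 kb from the nearest start site. That site belongs to a 7.12 kb transcript in the 3′ part of the gene. Inside the gene lay chr3:148837499-148839226, chr3:148853448-148855092 and chr3:148935457-148936743, at 1.97, 17.9 and 17.9 kb, and chr3:148985289-148987646 at 1.67 kb. These 4 are intronic by their midpoints. The 1.97 kb and the first 17.9 kb run to the start of an internal retained-intron transcript. From the outermost start the midpoints of these peaks lay 152 and 136 kb away. The 1.67 kb also runs to a retained-intron start. Upstream of the gene lay chr3:149017415-149018166 at 26.9 kb, chr3:149087100-149089076 at 96.5 kb, chr3:149215488-149216113 at 225 kb, chr3:149248984-149250726 at 258 kb and chr3:149358281-149359221 at 368 kb. Widths ran from 626 to 2760 bp. Of the 11, 3 merged with an RGC RBPJ peak (27.3%), beside 26.1% of all IPC RBPJ peaks. The other 8 were in cluster 3, the cluster with RBPJ signal in IPCs alone. None of the 11 merged with an RGC Notch or IPC Notch peak, beside 8.01% and 9.02% of all IPC RBPJ peaks. With so few peaks nothing is read from this.

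At the 5′ end of Adgrl2 the widest of its peaks, chr3:148983341-148990303, covered 6963 bp (cluster 7, RBPJ in both cell types). It covered the starts of a pair of retained-intron transcripts at 148989316 and 148989482 and ended short of the outermost start at 148990555. Further upstream, the peaks chr3:149084443-149087087 (RGC RBPJ only, cluster 5) and chr3:149087100-149090329 (RBPJ in both cell types, cluster 7) almost touched. Of the 7 RGC Notch peaks of Adgrl2, 1 merged with an RGC RBPJ peak (14.3%), beside 43.8% of all RGC Notch peaks. At the other members 3 of 4 merged (75%), and with so few peaks nothing is read from these shares. The merged Adgrl2 region was chr3:148558649-148563003 in cluster 4. Both IPC Notch peaks of Adgrl2 merged with an RGC RBPJ peak, beside 53.7% of all IPC Notch peaks. Neither merged with an IPC RBPJ peak, beside 23.4% of all IPC Notch peaks. Here too the peaks are so few that nothing is read from this.

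Sequence is shown for the members with most peaks in a list, as the 300 bp inside one of their peaks with most TTCCCA words, read on the plus strand of GRCm38. Capitals mark TTCCCA, or TGGGAA where the word is on the minus strand. The windows were picked for their words, so their number is no result. A 300 bp stretch with at least 3 words was present in 8.76% of all consensus peaks and in 10 of the 82 at members (12.2%), and a central window of the same length held at least 1 word in 29.9% of all consensus peaks.
Adgrl2, RGC RBPJ, chr3:149189122-149189421: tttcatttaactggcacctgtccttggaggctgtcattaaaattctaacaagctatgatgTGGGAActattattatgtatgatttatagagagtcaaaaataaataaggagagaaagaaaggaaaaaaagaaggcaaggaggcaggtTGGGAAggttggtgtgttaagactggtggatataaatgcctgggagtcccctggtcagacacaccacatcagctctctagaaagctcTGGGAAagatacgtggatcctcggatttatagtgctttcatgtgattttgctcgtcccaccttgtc
Adgrl2, RGC Notch, chr3:148924529-148924828: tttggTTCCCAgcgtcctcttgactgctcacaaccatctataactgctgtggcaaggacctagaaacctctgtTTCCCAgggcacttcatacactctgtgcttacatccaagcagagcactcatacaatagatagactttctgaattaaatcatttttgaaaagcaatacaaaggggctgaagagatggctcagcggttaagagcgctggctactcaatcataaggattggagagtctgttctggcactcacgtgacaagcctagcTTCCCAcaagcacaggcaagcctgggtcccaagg
Adgrl2, IPC RBPJ, chr3:148936390-148936689: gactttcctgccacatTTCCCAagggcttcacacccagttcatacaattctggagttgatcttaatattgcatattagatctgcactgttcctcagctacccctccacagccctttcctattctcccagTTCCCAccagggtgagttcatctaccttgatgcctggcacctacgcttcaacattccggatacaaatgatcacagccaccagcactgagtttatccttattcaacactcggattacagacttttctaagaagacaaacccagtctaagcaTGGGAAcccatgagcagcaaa
Adgrb3, IPC Notch, chr1:25179916-25180215: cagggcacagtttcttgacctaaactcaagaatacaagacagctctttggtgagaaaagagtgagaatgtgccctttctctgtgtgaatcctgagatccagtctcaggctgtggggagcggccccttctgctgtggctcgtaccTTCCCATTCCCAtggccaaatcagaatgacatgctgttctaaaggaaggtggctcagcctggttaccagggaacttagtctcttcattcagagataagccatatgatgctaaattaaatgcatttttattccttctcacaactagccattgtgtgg

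The first window lies upstream of Adgrl2 in a peak of RGC RBPJ that also holds an IPC Notch peak, the next 2 in introns of Adgrl2, and the last in an intron of Adgrb3 with its 2 words side by side. The 2 IPC Notch peaks of Adgrl2 held no TTCCCA word, so no window was taken for them. Within the lists' own peaks at members, the word was present in 45 of 57 RBPJ and 9 of 11 Notch peaks of RGCs. For IPCs it was in 23 of 26 RBPJ and 2 of 4 Notch peaks. The same shares over all peaks of each list are not given, so nothing is read from these counts.

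Adgrl3, a latrophilin that binds FLRT3 and teneurins, had 11 consensus peaks over the longest stretch of any member, 3.36 Mb, or 3.27 per Mb. In RGCs it had 8 RBPJ and 2 Notch peaks, and in IPCs 2 and 0. Distances ran from 0 to 1386 kb, with 5 peaks upstream and 5 downstream of the nearest start site. One peak, chr5:81019670-81022393 (2724 bp, GC 61.6%), covered the starts of 12 of its 35 transcripts, which lie at the 5′ end of the gene. They included 3 of its 20 protein-coding transcripts, and the starts of the other protein-coding transcripts, most of them from 81309873 to 81310025, were not covered by any peak. It was called in the IPC RBPJ list alone, while its cluster, 7, holds regions with NOTCH and RBPJ signal in both cell types. All 3 Adgrl3 promoter windows of RefSeq (250 bases before to 50 after a start) lay wholly under this peak, and 2 of them overlap. These windows held no TTCCCA word, while 25.6% of 32851 mouse promoter windows did. The whole peak held 2 TTCCCA words, so nothing is read from the windows.

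Adgrl1, the latrophilin first found as a receptor of a spider toxin, had 2 peaks, both beside a start site. The upstream one, chr8:83898921-83899932, was called for IPC RBPJ and ended 173 bp before the first start. The other, chr8:83900929-83905120, was called for RBPJ in both cell types and began 194 bp past a start. Both were in cluster 7. The upstream peak reached 85 bases into the RefSeq promoter window, shown here because it is where an IPC RBPJ peak runs into a latrophilin promoter. This stretch held neither TTCCCA nor GATC.
Adgrl1, IPC RBPJ, chr8:83899848-83899932: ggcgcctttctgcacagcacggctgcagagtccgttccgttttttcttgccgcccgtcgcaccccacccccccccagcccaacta

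Adgrl4, an endothelial member of the subfamily, had 7 peaks: 6 for RGC RBPJ and 1 for IPC RBPJ. Upstream lay 5 of them, 311 to 987 kb from its start site, in the gap between Adgrl4 and Adgrl2. No consensus peak was found in the 1.09 Mb between the last Adgrl2 peak and the first Adgrl4 peak. The IPC RBPJ peak, chr3:151450705-151452304, lay in an intron 11.6 kb from a start.

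Among the brain angiogenesis inhibitors, Adgrb3, a receptor of C1q-like proteins, had 7 peaks, with 5 RBPJ and 0 Notch calls in RGCs and 4 and 2 in IPCs. Of these, 6 lay in its 762 kb gene body. The region chr1:25177594-25180407 (cluster 7) was called in 3 lists, for RBPJ in both cell types and for IPC Notch, and was the only region of the family called in more than 2. Beside the 5′ end, chr1:25821795-25829499 covered 7705 bp with the starts of 3 transcripts and was called for RBPJ in both cell types (cluster 5). It was followed by chr1:25830356-25833143 (cluster 2), 649 bp upstream of the outermost start and called for RGC RBPJ and IPC Notch.

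The 4 peaks of Adgrb1, which drives engulfment through ELMO and DOCK proteins, all lay upstream and 185 to 320 kb away. All 4 were called for RGC RBPJ, with an RGC Notch call at chr15:74326647-74331163 (cluster 6) and an IPC RBPJ call at chr15:74221163-74223306 (cluster 7). Adgrb2 had 2 peaks, both for RGC RBPJ and both upstream at 8.33 and 17 kb, and the further one was also called for IPC RBPJ.

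Adgrv1, a giant receptor of the stereocilia links of hair cells that is mutated in Usher syndrome, had 9 peaks: 7 RGC RBPJ, 1 RGC Notch and 2 IPC RBPJ. Inside the gene lay 8 of them, and its 0.529 Mb stretch held 17 per Mb. The region chr13:81569264-81572048 (RGC RBPJ, cluster 7) covered the start of 1 of the shorter transcripts, within the gene. The region called for both RGC RBPJ and RGC Notch was chr13:81593979-81599337 (cluster 4). Both IPC RBPJ peaks, chr13:81510332-81512922 and chr13:81514808-81517185, held no GATC site.

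Adgrg1, a collagen III receptor of neural progenitors, had a single peak, chr8:94996305-94998023, in an intron and 644 bp from an internal start. It was called for IPC RBPJ only (cluster 3), and Adgrg1 was the only member with IPC RBPJ peaks and none for RGC RBPJ. Adgra3 had 3 peaks and Adgra1 had 1, all for RGC RBPJ only. The nearest Adgra3 peak lay 62 bp from the start of an internal retained-intron transcript, at 50053379. The protein-coding transcript of Adgra3 starts at 50059006. Adgrd1, which raises cyclic AMP, had 1 RGC RBPJ and 1 IPC RBPJ peak at 183 and 105 kb.

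**Figure D4:**
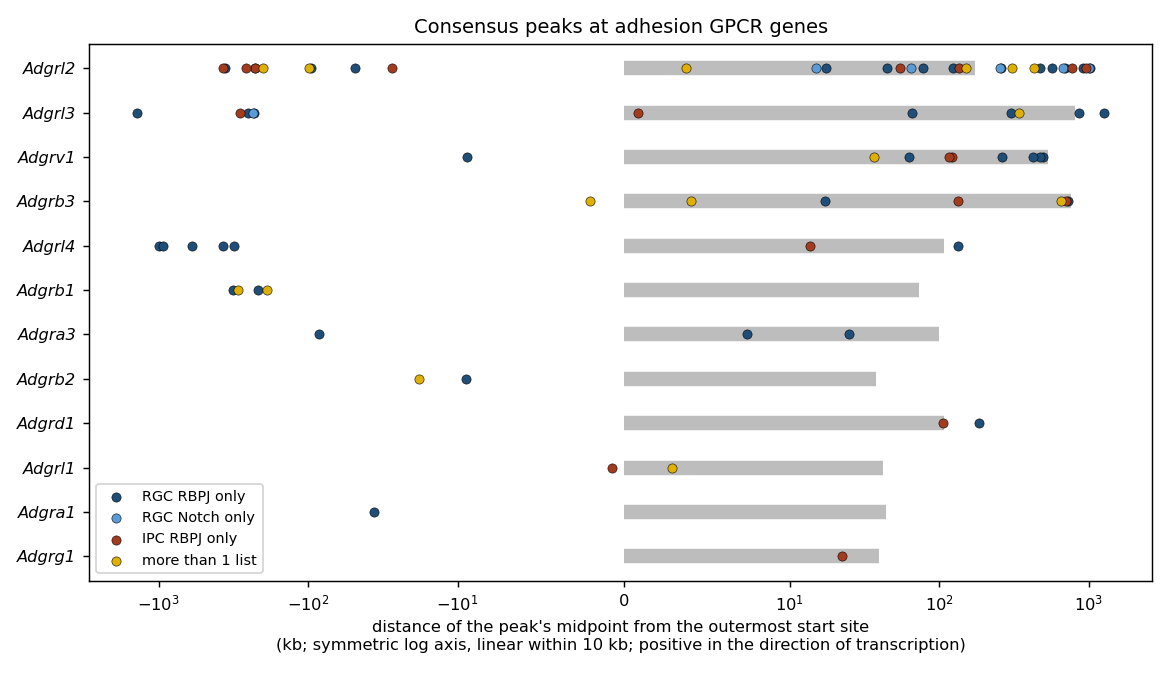
Midpoints of the 82 consensus peaks by distance from the outermost start site of their gene (kb, symmetric log axis, positive in the direction of transcription), coloured by the lists that call them, with gene bodies as grey bars. Peaks of Adgrb1 lie upstream, those of Adgrv1 and Adgrb3 mostly in the gene, and those of Adgrl2 on all sides.

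The 15 members without a peak were Adgra2, Adgre1, Adgre4, Adgre5, Adgrf1, Adgrf2, Adgrf3, Adgrf4, Adgrf5, Adgrg2, Adgrg3, Adgrg4, Adgrg5, Adgrg6 and Adgrg7. Among them are Adgra2, a Wnt7 co-receptor of brain vessels, Adgre1, the F4/80 antigen of macrophages, Adgre5 of leukocytes, and Adgrg6, which Schwann cells need to myelinate. No consensus peak had its midpoint in any of these genes. The nearest peak, given to another gene, lay 19.7 kb (Adgrg3) to 365 kb (Adgrg6) from their starts, with a median of 104 kb. Their stretches were short, with a median of 0.0832 Mb against 0.474 Mb for the 12 members with peaks. In the genome, a peak was present at 20.7% of genes with stretches under 0.05 Mb and 90.5% of those of 1 Mb or more. Of the members, 0 of 4 and 5 of 5 had a peak in these classes. Between 0.05 and 0.1 Mb it was 2 of 7, beside 42% of all genes, and between 0.1 and 0.2 Mb it was 2 of 6, beside 62.4%. Presence of a peak and length of the stretch cannot be told apart in this family.

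The 82 peaks resembled the whole set in how lists shared them. More than 1 list called 15 of them (18.3%, interval 11.4 to 28%), beside 17.1% of all consensus peaks, and none was called in 4. RGC RBPJ called 69.5% of them and RGC Notch 13.4%, beside 67.6% and 17.7% of all. IPC RBPJ called 31.7% and IPC Notch 4.88%, beside 26.2% and 10.1%. The IPC RBPJ list was used in the choice, so nothing is read from its share. Called for RBPJ in both cell types were 8 (9.76%, beside 6.85% of all), for both proteins in RGCs 4 (4.88%, beside 7.77%) and for both proteins in IPCs 1 (1.22%, beside 2.36%). No region was called for Notch in both cell types, with an interval of 0 to 4.48% that included the 2.37% of all consensus peaks.

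The clusters, made by the authors from the averaged binding signal of each region, placed 7, 3, 16, 6, 18, 5, 13 and 14 member peaks in clusters 1 to 8. Cluster 1 holds NOTCH alone in RGCs (8.54%, beside 10.5%), cluster 5 (22%, beside 22.5%) and cluster 8 (17.1%, beside 14.4%) RBPJ alone in RGCs, and cluster 3 RBPJ alone in IPCs (19.5%, beside 16.3%). NOTCH and RBPJ together mark cluster 4 in RGCs (7.32%, beside 9.79%). In both cell types they mark clusters 2 (3.66%, beside 4.76%), 6 (6.1%, beside 10.8%) and 7 (15.9%, beside 11%). The share in all consensus peaks lay inside the interval of the members in each of the 8 clusters. All 16 member peaks of cluster 3 were called in the IPC RBPJ list alone. That list was used in the choice, so nothing is read from the share of cluster 3. Of the 27 member peaks in clusters 2, 4, 6 and 7, 13 were called in 1 list only (48.1%), beside 63.9% of all consensus peaks in these clusters, so cluster and list calls are different measures.

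**Figure D5:**
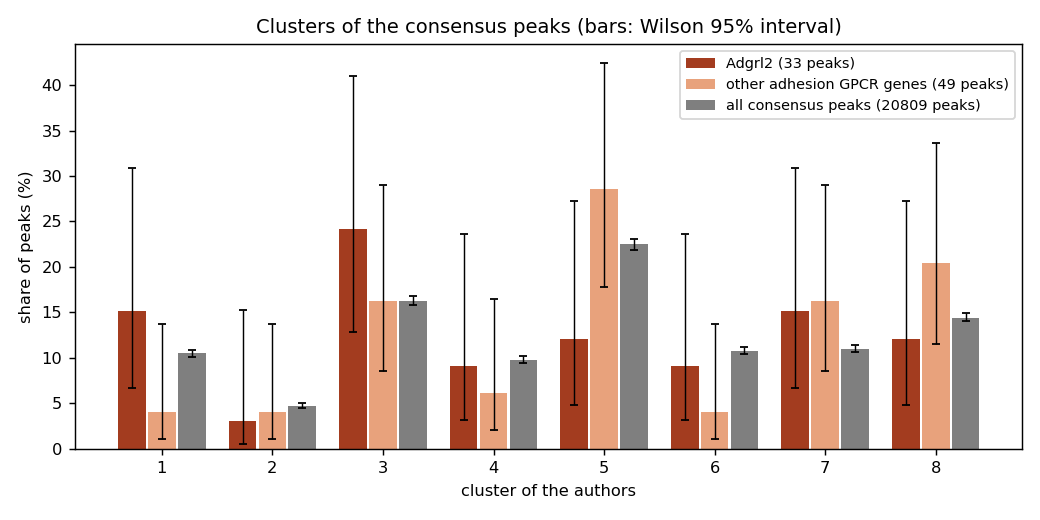
Share of consensus peaks in each of the 8 clusters (%), for Adgrl2, for the other adhesion GPCR genes and for all consensus peaks, with Wilson 95% intervals. Adgrl2 has 24.2% of its peaks in cluster 3 and the other members 28.6% in cluster 5, with intervals that include the share of all peaks. The cluster 3 peaks of members come from the IPC RBPJ list used in the choice, so nothing is read from their share.

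In position and sequence the member peaks stood further out and were poorer in GC than the whole set. Start sites were covered by 4 of the 82 peaks (4.88%, interval 1.91 to 11.9%), beside 16.6% of all consensus peaks, at Adgrb3, Adgrl2, Adgrl3 and Adgrv1. Over 100 kb from the start lay 39 (47.6%, 37.1 to 58.2%), beside 22.7%. Without Adgrl2 these shares were 6.12% and 44.9%. Members with a peak had a median stretch of 0.474 Mb, beside 0.101 Mb for all protein-coding genes with a peak. Distances are bounded by the stretch, and the part of its length in these shares was not tested. Introns held 31 midpoints, exons 3, the 5 kb upstream of genes 2, and intergenic sequence 46 (56.1%, beside 38.7% of all). The median GC content was 41.2%, beside 45.3%, and the median width was 1868 bp, beside 1890 bp. The Adgrl2 stretch as a whole had a GC content of 40%.

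The word TTCCCA, counted on both strands, was found in 66 of the 82 peaks (80.5%, 70.6 to 87.6%), beside 82.9% of all consensus peaks. Its density was 1.14 per kb at members and 1.17 per kb in all peaks. Across the Adgrl2 stretch it was 1.1 per kb inside the peaks and 0.874 per kb outside. The peaks held 76 words in 69 kb, with a median GC of 42% beside 40% over the stretch. No interval was computed and GC was not matched, so this is a description. Among member peaks, cluster 8 had the lowest density, 0.637 per kb over 14 peaks, beside 1.07 in all peaks of that cluster. Cluster 6 had the highest, 1.49 per kb over 5 peaks, beside 1.09. These extremes were picked after seeing the values and rest on 19 and 20 words, so nothing is read from them. A match to the word is a description of sequence, not a site.

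GATC, the only sequence that Dam methylates, was absent from 8 of the 82 peaks (9.76%), beside 9.76% of all consensus peaks. Of these 8, 7 were IPC RBPJ peaks of cluster 3, at Adgrb3, Adgrd1, Adgrl2, Adgrl3 and Adgrv1. They made up 26.9% of the 26 member peaks called for IPC RBPJ, beside 32.7% of all, and for RGC RBPJ it was 1 of 57 (1.75%, beside 1.22% of all). For Adgrl2 it was 2 of 11. The part of this in the IPC RBPJ counts was not tested.

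The partners of these receptors were counted the same way. Of 24 ligands and binding partners, 18 had a consensus peak (75%, beside 38.7% of all protein-coding genes), with 143 peaks in all. Stretch length was not matched, so nothing is read from this share. The teneurins, ligands of the latrophilins, held many of these peaks: Tenm3 had 29, Tenm4 28 and Tenm2 18, and Tenm1 had none. The stretches of Tenm3, Tenm4 and Tenm2 were 2.97, 2.25 and 2.75 Mb, with 9.76, 12.5 and 6.54 peaks per Mb. For IPC RBPJ the teneurins had 10 (Tenm4), 7 (Tenm3) and 5 (Tenm2). Of the FLRT genes, Flrt2 had 12, Flrt1 4 and Flrt3 2, and Unc5d, an FLRT partner, had 15. Among the C1q-like genes, C1ql3 had 2, C1ql1 and C1ql2 had 1 each and C1ql4 had none. Col3a1, the ligand of Adgrg1, Tgm2, Rtn4r and Rtn4rl1 also had none. The 19.8 Mb of sequence nearest to the 24 genes held 7.22 peaks per Mb, near the 7.63 of the genome.

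Of 8 intracellular effectors, 6 had a peak (75%, beside 38.7%), at 11.8 peaks per Mb beside 7.63 for the genome. Here too stretch length was not matched, and nothing is read from the share. There were 8 peaks at Elmo1, 7 at Tiam1, 3 at Dock1, 1 each at Elmo2, Gna13 and Baiap2, and none at Gna12 and Rhoa. The Celsr genes, adhesion receptors of planar polarity that the symbol rule does not take, had 7 (Celsr1), 2 (Celsr2) and 0 (Celsr3), in stretches of 0.146 Mb or less. The known Notch targets Hes1 and Hes5 had 12 and 3 peaks, in 0.326 and 0.0178 Mb, that is 36.8 and 169 per Mb against 14.2 at Adgrl2. The Hes5 promoter is also present on the RGC plasmids.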

How the data were processed

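For the processed files the authors binned reads by GATC fragments, ran MACS2 on each Dam-fusion sample against each Dam-only sample (broad peaks, mm10), kept peaks under a strict FDR that were present in all pairs, merged overlapping peaks into consensus regions and clustered these by k-means. The deposited lists hold positions; the score column deposited with them is constant and was not used. Columns of single samples numbered 0.

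Mitochondrial peaks were left out. Each peak was given to the protein-coding gene (GENCODE release M21) with the nearest transcript start, measured from the peak's edge. A gene's stretch is all sequence nearer to its starts than to those of other genes. A consensus peak counted as called where a list peak overlapped it by 1 bp, and the calls equalled the names in the cluster file for all 20809. Sequence came from GRCm38, the build of the files, and promoters from RefSeq (GRCm38.p6, 24 windows of 20 members). Words were counted on both strands. Python 3.11.15, pandas 2.3.3, numpy 2.4.6, scipy 1.17.1, pysam 0.24.0 and matplotlib 3.10.9 were used.

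The members and gene lists were chosen with earlier results of these data known. Every member is named, and single regions are given where they cover a start, are called in 3 lists or are IPC RBPJ peaks of Adgrl2. Other regions, at members with many or few peaks, were named after their values were seen. Depth is unknown. Alternatives changed the start sites, distance, width and overlap.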

Additional observations from a re-analysis of the deposited data

How the results depend on the processing

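The gene count of 12 ranged from 9 to 12 over 6 alternatives. Start sites of all annotated genes, most of them short or non-coding near Adgrl2, left 24 consensus peaks at members, with 17 RGC RBPJ, 4 RGC Notch, 10 IPC RBPJ and 1 IPC Notch, and at Adgrl2 7 consensus and 3 IPC RBPJ. Only peaks within 100 kb left 43, 30, 5, 17 and 2, and at Adgrl2 16 and 6. Only midpoints inside the gene body left 34, 22, 4, 15 and 1, and at Adgrl2 10 and 4. Without Adgrl2, chosen after seeing the data, 49 consensus, 4 RGC Notch, 15 IPC RBPJ and 2 IPC Notch peaks remained at members. These settings take fewer peaks by construction. Distance from midpoints, a width of at least 1000 bp and, chosen after seeing the data, the outermost start of each gene kept every count within 1.5 times. Counting GATC up to 100 bp beyond the ends gave 4.88% of peaks without a site, and the longer word TTCCCAC gave 0.324 per kb. The other 39 of 66 alternatives stayed within 1.5 times the count or within the interval. No paired analysis was possible because each condition has 1 list for all its samples, and for the same reason no sample could be left out. Depth and binding strength are unknown, so a gene without a peak is not shown to be unbound.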
